A study of Mus musculus with 6 samples.

Results

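Collagen genes were taken as every gene whose mouse symbol consists of Col, a number, the letter a and a number, after Ensembl gene IDs had been matched to symbols. This gave 44 genes of the 55487 in the table. They were divided by textbook class into 11 fibrillar collagens, 6 type IV collagens of basement membranes and 27 others. Muscle stem cells were collected from 10-week-old mice 60 h after cardiotoxin, a toxin that destroys muscle fibres and sets off their repair. The control group held 3 libraries from mice labelled WT and given oil, and the Setdb1 knockout (KO) group held 3 libraries from mice labelled KO and given tamoxifen. Injury and age were shared by both groups. Genotype and tamoxifen changed together, so their effects cannot be told apart, and the labels name neither the Cre driver nor the deleted exon. Setdb1, which encodes a methyltransferase for lysine 9 of histone H3, was at 34.8, 40.5 and 32.1 CPM in control and 16.5, 12.7 and 14.7 CPM in KO libraries (log2 fold change -1.30, SE 0.16, adjusted p = 2.092e-04 in edgeR's quasi-likelihood test with Benjamini-Hochberg adjustment over all genes tested, as used throughout). CPM are counts scaled to a common library size.

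Collagens are extracellular proteins built from 3 chains that wind into a triple helix. Fibrillar collagens form the ropes of connective tissue, type IV collagen forms the sheet of the basement membrane that wraps each muscle fibre and its stem cells, and the remaining types decorate fibrils, link them to cells or sit in the cell membrane. In muscle most fibrillar collagen is made by fibroblast-like cells of the connective tissue, while muscle stem cells also produce matrix of their own, including type V collagen, which is known to act on them through the calcitonin receptor.

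Of the 44 collagen genes, 25 had enough counts to be tested, and 4 were higher in KO cells: Col15a1, Col5a3, Col26a1 and Col27a1. No collagen was lower, with or without adjustment of p, at the threshold of 0.05. Of all 11224 genes tested, 2.22% were higher and 0.615% were lower. Before adjustment, 11 of the 25 were higher with a p under 0.05, against 10.1% of all genes tested. All KO libraries lay above all control libraries for 8 of the 25, against 12.8% of all genes tested. The log2 fold change was positive in each of the 25 tested collagens, with a median of 0.51, but in 21 of the 25 without control library 2 or without KO library 3. It was positive in 50.9% of all genes tested, with a median of 0.007. The number called was 1 without control library 2, KO library 1 or KO library 2, 2 without control library 3 or KO library 3, 5 without control library 1, and 2 with DESeq2. The low-count filter keeps a gene that is high in only 1 group, so these counts describe the collagens that passed it and not the whole family. Col26a1 was such a gene, as it passed the filter through its KO libraries only. It had 9, 4 and 8 counts in control and 20, 22 and 19 in KO libraries. The 4 called, the 8 without overlap and the 25 positive genes include it. Among all 44, the KO mean CPM was above the control mean in 41, against 69.9% of the 34908 genes with any count. Of these 41, 16 were among the 19 untested collagens, whose direction rests on at most 14 counts in any library.

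**Figure D1:**
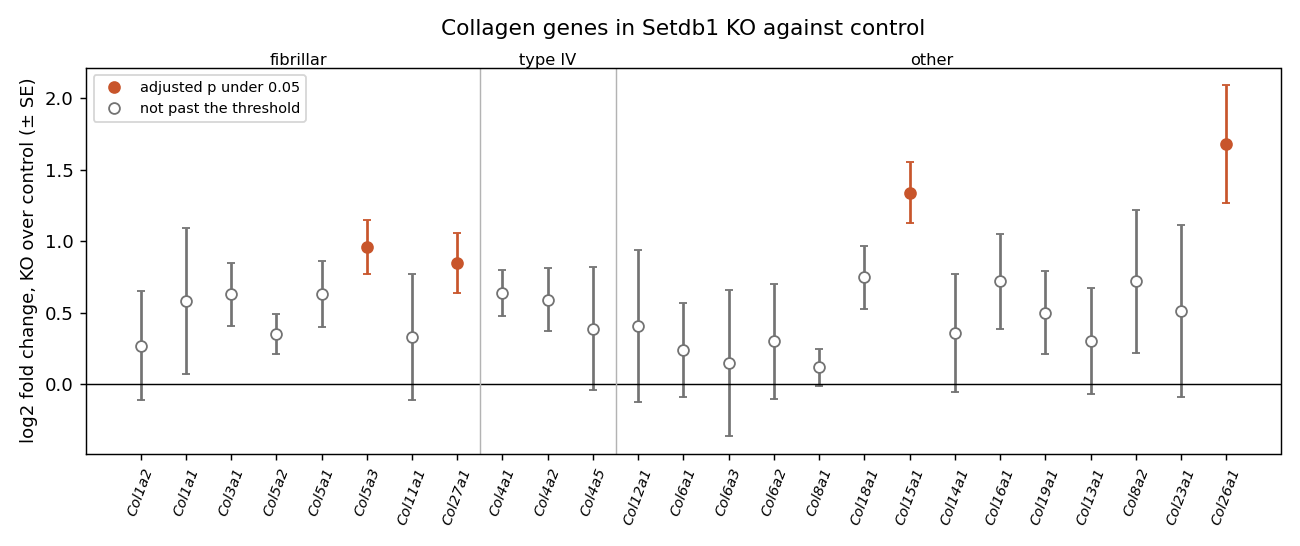
Log2 fold change of each tested collagen gene, KO over control, with bars of 1 SE, ordered by class and by control level. Filled points mark the 4 genes with an adjusted p under 0.05, and every point lies above 0, which holds for 21 of the 25 genes when control library 2 or KO library 3 is left out.

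Col15a1 showed the most significant change. It encodes type XV collagen, a multiplexin, that is, a basement membrane zone collagen whose helix is interrupted and which carries a sugar chain. Col15a1 (ENSMUSG00000028339, chr4:47208161-47313167, plus strand, GRCm38) was at 6.41, 5.22 and 7.94 CPM in control libraries and 16.0, 19.5 and 14.5 CPM in KO libraries. The lowest KO library was thus well above the highest control library. The mean rose from 6.52 ± 1.37 to 16.6 ± 2.59 CPM (SD, n = 3), and the log2 fold change was 1.34 (SE 0.21, adjusted p = 0.00198). Among the 25, Col15a1 was the only collagen past the threshold under each of the 15 alternative settings, with adjusted p up to 0.0255.

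Col5a3 encodes the third chain of type V collagen, a minor fibrillar collagen that sets fibril diameter. It was at 26.2, 19.0 and 14.2 CPM in control libraries and at 38.8, 40.0 and 36.5 CPM in KO libraries. The KO values were close together and all above the controls. The mean of Col5a3 (chr9:20770050-20815067, minus strand) rose from 19.8 ± 6.05 to 38.5 ± 1.78 CPM, and the log2 fold change was 0.96 (SE 0.19, adjusted p = 0.0124). Its call ended without control library 2 (adjusted p = 0.0927), KO library 1 (0.0997) or KO library 2 (0.0703), and with library totals in place of TMM factors (0.0573).

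Col27a1, a fibrillar collagen best known from cartilage, was at 7.41, 8.14 and 8.50 CPM in control and 18.6, 12.9 and 12.3 CPM in KO libraries, without overlap. The log2 fold change was 0.85 (SE 0.21, adjusted p = 0.0441). Col26a1, a short collagen with no settled class, was at 1.80, 0.835 and 1.48 CPM in control and 5.32, 4.52 and 3.71 CPM in KO libraries, and its log2 fold change was 1.68 (SE 0.41, adjusted p = 0.0383). These are low levels: Col26a1 had 9, 4 and 8 counts in control libraries and 20, 22 and 19 in KO libraries. Neither gene was called by DESeq2 (adjusted p = 0.434 for Col27a1 and 0.368 for Col26a1), and neither call held without any 1 of the 6 libraries (adjusted p from 0.0568 to 0.202 for Col27a1 and from 0.0678 to 0.186 for Col26a1). Both lay close to the threshold. The 4 called genes shared between 0% and 1.85% of their 50-base words with transcripts of other genes.

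Of the 4 called genes, 3 were matched in the RefSeq promoter table, all but Col26a1. The promoters of Col15a1, Col5a3 and Col27a1 are shown because these genes rose, and those of Col4a1 and Col4a2 because these partner genes start at the same place. Each window is RefSeq sequence (GRCm38.p6) from 250 bases before to 50 bases after the RefSeq gene start, 5′ to 3′ on the gene's own strand. RefSeq has this start at base 47208012 for Col15a1 and 63215412 for Col27a1. GENCODE M21, the source of the gene positions given here, has 47208161 and 63214004. The Col15a1 window thus ends before its GENCODE start, and the Col27a1 window lies inside the GENCODE gene. For Col5a3, Col4a1 and Col4a2 both sources have the same start. Capitals mark 4 motifs, each searched on both strands, none of which contains another. The TATA box was searched as TATAAA. The site of the factor NF-Y was searched as CCAAT, and the GC box of Sp1 as GGGCGG. The core site of the Notch partner RBPJ was searched as TGGGAA. The windows lie at chr4:47207762-47208061 (plus), chr9:20815018-20815317 (minus), chr4:63215162-63215461 (plus), chr8:11312777-11313076 (minus) and chr8:11312555-11312854 (plus), in the order printed.
Col15a1: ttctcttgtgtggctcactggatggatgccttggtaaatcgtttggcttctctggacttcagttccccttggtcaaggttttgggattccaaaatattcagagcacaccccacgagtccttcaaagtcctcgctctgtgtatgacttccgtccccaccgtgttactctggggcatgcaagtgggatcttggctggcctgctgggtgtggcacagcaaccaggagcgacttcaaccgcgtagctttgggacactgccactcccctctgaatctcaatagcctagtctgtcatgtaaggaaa
Col5a3: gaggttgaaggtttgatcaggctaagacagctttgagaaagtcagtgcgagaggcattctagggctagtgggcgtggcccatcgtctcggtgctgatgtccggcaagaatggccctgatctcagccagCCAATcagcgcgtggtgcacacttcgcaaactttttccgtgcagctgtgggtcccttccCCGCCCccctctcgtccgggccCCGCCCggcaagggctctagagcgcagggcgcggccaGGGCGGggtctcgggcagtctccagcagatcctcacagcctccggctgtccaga
Col27a1: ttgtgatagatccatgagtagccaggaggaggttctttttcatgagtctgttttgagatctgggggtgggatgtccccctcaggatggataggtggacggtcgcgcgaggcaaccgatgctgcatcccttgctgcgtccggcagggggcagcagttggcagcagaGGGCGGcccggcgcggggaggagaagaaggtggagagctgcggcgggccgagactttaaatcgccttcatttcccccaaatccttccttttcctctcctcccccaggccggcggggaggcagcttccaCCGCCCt
Col4a1: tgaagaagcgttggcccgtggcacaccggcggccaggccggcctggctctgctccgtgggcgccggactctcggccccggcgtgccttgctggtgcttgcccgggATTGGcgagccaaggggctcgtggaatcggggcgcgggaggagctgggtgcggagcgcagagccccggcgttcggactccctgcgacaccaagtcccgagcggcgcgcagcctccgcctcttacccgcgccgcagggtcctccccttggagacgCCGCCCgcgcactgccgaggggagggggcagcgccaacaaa
Col4a2: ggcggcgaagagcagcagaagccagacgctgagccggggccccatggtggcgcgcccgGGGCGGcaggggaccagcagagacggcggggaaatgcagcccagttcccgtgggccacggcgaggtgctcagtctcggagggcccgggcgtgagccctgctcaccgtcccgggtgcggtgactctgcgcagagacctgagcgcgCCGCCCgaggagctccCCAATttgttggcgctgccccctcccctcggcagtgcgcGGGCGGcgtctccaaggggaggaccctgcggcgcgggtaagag

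The 3 promoters of called genes were unlike one another. The Col15a1 window held none of the 4 motifs and was 52.3% G or C. Col5a3 held 3 GC boxes and 1 CCAAT and was 63.3% G or C, and Col27a1 held 2 GC boxes and was 61.7% G or C. The RefSeq table held 38 windows for 35 collagen genes, of which 22 windows belonged to 20 tested collagens. Among those 22, GGGCGG was found in 15, CCAAT in 8, TGGGAA in 3 and TATAAA in 2. In all 32851 windows of the table, the shares were 35.7%, 37.4%, 25.6% and 13.6%. The median G or C content was 59.8% over the 38 collagen windows and 52.7% over all windows. Some collagen windows overlap, as for Col4a1 and Col4a2, so a site can be counted more than once. A match in these letters is a description and not a binding site.

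Among the fibrillar collagens, the major chains Col1a1, Col1a2 and Col3a1 took most collagen counts, from 56.0% to 62.8% per library. None of the 3 was called. Col1a1, the main chain of type I collagen, was at 566.7, 196.2 and 339.5 CPM in control and 422.9, 422.2 and 798.3 CPM in KO libraries. The groups overlapped, and control library 2 and KO library 3 were the extremes. The log2 fold change of Col1a1 was 0.58 (SE 0.51, adjusted p = 0.633). Its partner chain Col1a2 ran from 261.2 to 527.5 CPM in control and from 355.1 to 667.6 CPM in KO libraries, with a log2 fold change of 0.27 (SE 0.38) that fell to -0.10 without KO library 3.

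Col3a1, which forms the thin fibrils of healing tissue, behaved differently in that its groups did not overlap. It was at 447.0, 239.4 and 291.9 CPM in control and 470.5, 459.1 and 581.4 CPM in KO libraries. Its log2 fold change was 0.63 (SE 0.22, unadjusted p = 0.0186, adjusted p = 0.183). The gene was called when control library 1 was left out (adjusted p = 0.00832) and not when control library 2 was (adjusted p = 0.425).

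The other chains of type V collagen gave smaller differences than Col5a3. Col5a1 was at 56.3, 31.9 and 35.1 CPM in control and 54.3, 59.3 and 77.4 CPM in KO libraries (log2 fold change 0.63, SE 0.23, adjusted p = 0.213). Col5a2 was at 226.9, 158.2 and 176.0 CPM in control and 239.4, 219.5 and 254.3 CPM in KO libraries (log2 fold change 0.35, SE 0.14, adjusted p = 0.214). In both genes a single control library, library 1, reached into the KO range. Without library 1 Col5a1 was called (adjusted p = 0.0104), and without control library 2 it was not (adjusted p = 0.449). Col11a1, a minor partner of fibrillar collagens, had a log2 fold change of 0.33 (SE 0.44) and overlapping groups.

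**Figure D2:**
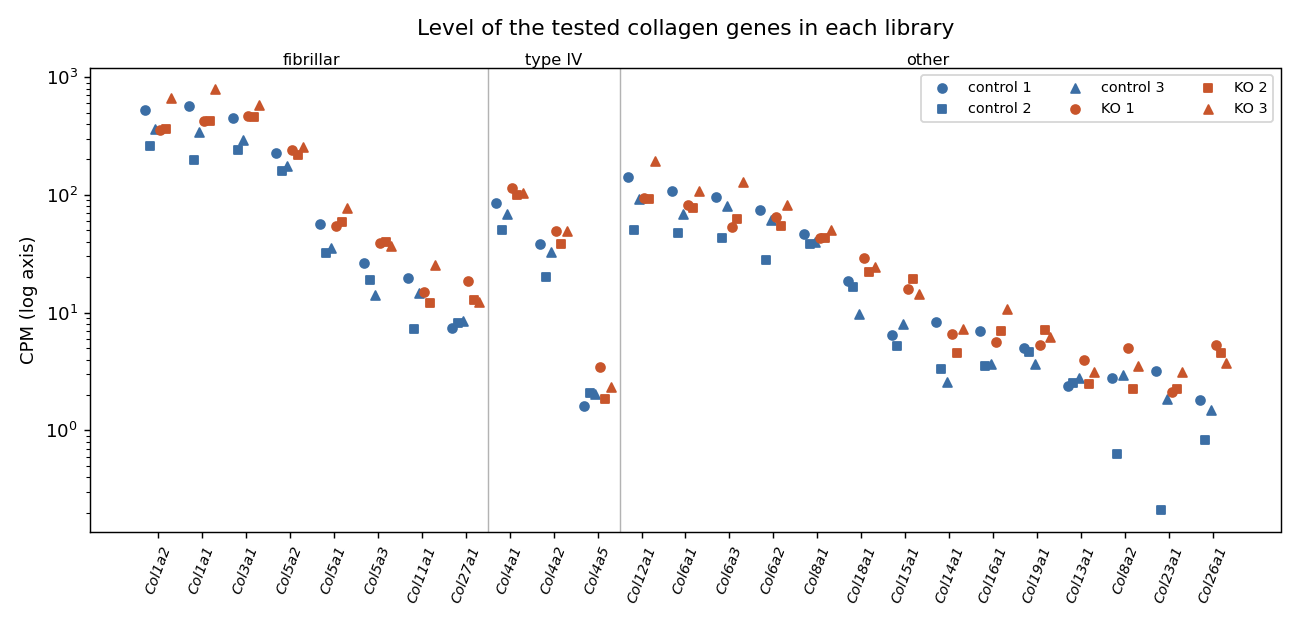
CPM of the 25 tested collagen genes on a log axis in each of the 6 libraries, ordered by class and by control level, with control libraries in blue and KO libraries in orange. For Col15a1, Col5a3, Col27a1 and Col26a1 the orange points lie above all blue points, while for Col1a1, Col1a2 and Col12a1 the groups overlap.

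Of the 6 type IV genes, Col4a1, Col4a2 and Col4a5 were tested and none was called. Col4a1 and Col4a2, whose products join as the common basement membrane trimer, are transcribed in opposite directions on chromosome 8, and their annotated transcripts overlap by 22 bases at the start, where reads cannot be assigned without the strand. Col4a1 was at 84.9, 50.1 and 69.3 CPM in control and 114.4, 99.4 and 104.7 CPM in KO libraries. All KO values exceeded all control values, and the log2 fold change of 0.64 (SE 0.16) had an unadjusted p of 0.00201 and an adjusted p of 0.0608. It passed the threshold with mitochondrial and structural RNA genes removed, without a low-count filter and with the replicate number as a block. Without control library 1 it passed as well (adjusted p = 0.0112). It did not pass without any other single library, with adjusted p of 0.227 without control library 2 and 0.266 without KO library 1.

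Col4a2 was at 38.4, 20.0 and 32.5 CPM in control and 49.2, 38.4 and 49.8 CPM in KO libraries, and the log2 fold change was 0.59 (SE 0.22, adjusted p = 0.196). Its lowest KO library and its highest control library were both at 38.4 CPM. Col4a5, a chain of a rarer type IV trimer, stayed between 1.60 and 3.46 CPM in the 6 libraries. Col4a3, Col4a4 and Col4a6 were not tested, with at most 6 counts in any library. Summed over the class, type IV genes took 0.0231%, 0.0131% and 0.0185% of protein-coding counts in control and 0.0319%, 0.0253% and 0.0283% in KO libraries. The groups did not overlap on this scale. As a share of all counts, the highest control library was at 0.0137% and the lowest KO library at 0.0139%. With counts divided by exon length and scaled to a common total over protein-coding genes (TPM), the groups overlapped. Control library 1 was at 98.0 TPM and KO library 2 at 95.9 TPM.

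Among the other collagens, the second multiplexin had a positive log2 fold change like the first, as did all 25 tested collagens. Col18a1, the source of endostatin, was at 18.6, 16.5 and 9.79 CPM in control and 29.3, 22.0 and 24.4 CPM in KO libraries. Its groups did not overlap, and the log2 fold change was 0.75 (SE 0.22, adjusted p = 0.0888), short of the threshold.

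The type VI chains form beaded filaments around muscle fibres and are part of the stem cell surroundings. Col6a1 was at 108.7, 47.8 and 69.5 CPM in control and 81.7, 76.8 and 108.7 CPM in KO libraries. Col6a2 was at 74.3, 28.0 and 61.0 CPM in control and 65.4, 54.6 and 81.7 CPM in KO libraries. Col6a3 was at 96.9, 43.0 and 80.9 CPM in control and 52.9, 62.6 and 129.0 CPM in KO libraries. In all 3 genes control library 2 was lowest and the groups overlapped. Their log2 fold changes were 0.24 (SE 0.33), 0.30 (SE 0.40) and 0.15 (SE 0.51), and without control library 2 they were -0.01, -0.02 and -0.13, so no direction is given for type VI.

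Fibril-associated collagens bind to the surface of fibrils. Col12a1 was at 143.0, 50.7 and 92.4 CPM in control and 93.9, 93.2 and 193.7 CPM in KO libraries (log2 fold change 0.41, SE 0.53), with the same low and high libraries as Col1a1. Col16a1 reached an unadjusted p of 0.0478 (log2 fold change 0.72, SE 0.33, adjusted p = 0.275). Col19a1 was between 3.69 and 5.01 CPM in control and between 5.32 and 7.19 CPM in KO libraries (adjusted p = 0.378). Col14a1 ranged from 2.59 to 8.41 CPM in control libraries alone. Col8a1, a short-chain network collagen, stood at 41.7 ± 4.17 CPM in control and 45.4 ± 3.99 CPM in KO libraries (log2 fold change 0.12, SE 0.13). Col8a2 and the transmembrane collagens Col13a1 and Col23a1 had mean levels between 1.75 and 3.61 CPM and adjusted p of 0.483, 0.721 and 0.703.

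The 19 collagens that were not tested held 0.451% of all collagen counts together, and none had more than 14 counts in a library. They included the cartilage collagens Col2a1, Col9a1, Col9a2, Col9a3, Col10a1 and Col11a2, the skin collagens Col7a1 and Col17a1, and Col6a4, Col6a5, Col6a6, Col20a1, Col22a1, Col24a1, Col25a1 and Col28a1. Col4a3, Col4a4 and Col4a6 of the basement membrane made up the rest. Col2a1 reached 14 counts and Col17a1 11 counts. No fold change is given for them at this depth.

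Levels of different collagens were compared per length of annotated exons, in TPM, which divides counts by length and scales them to a common total over protein-coding genes. Col1a1 ranked first, at 292.7 ± 172.3 TPM in control and 421.2 ± 163.3 TPM in KO libraries, followed by Col3a1, Col1a2, Col5a2, Col6a1 and Col4a1. With the length of the principal transcript in place of all annotated exons, Col1a2 ranked first and Col1a1 second, so the order of the type I chains is not settled. At the exon-length scale the called genes stood lower, Col5a3 at 15.2 ± 6.05 and 28.6 ± 1.51 TPM, Col15a1 at 5.23 ± 0.874 and 13.2 ± 1.88 TPM, Col27a1 at 3.14 ± 0.107 and 5.70 ± 1.53 TPM and Col26a1 at 0.866 ± 0.358 and 2.80 ± 0.566 TPM.

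The spread between libraries of a group was wide for collagens. In control libraries the median coefficient of variation (SD as a percent of the mean) was 33.1% over the 25 tested collagens and 13.9% over 11018 tested genes at or above the lowest collagen mean. In KO libraries it was 20.3% against 13.7%. Control library 2 was the lowest of the 6 libraries for 18 of the 25 collagens, or 72.0%, and for 18.1% of all genes tested. KO library 3 was the highest for 12 of the 25, or 48.0%, and for 12.4% of all genes tested. No tested collagen was lowest in a KO library.

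**Figure D3:**
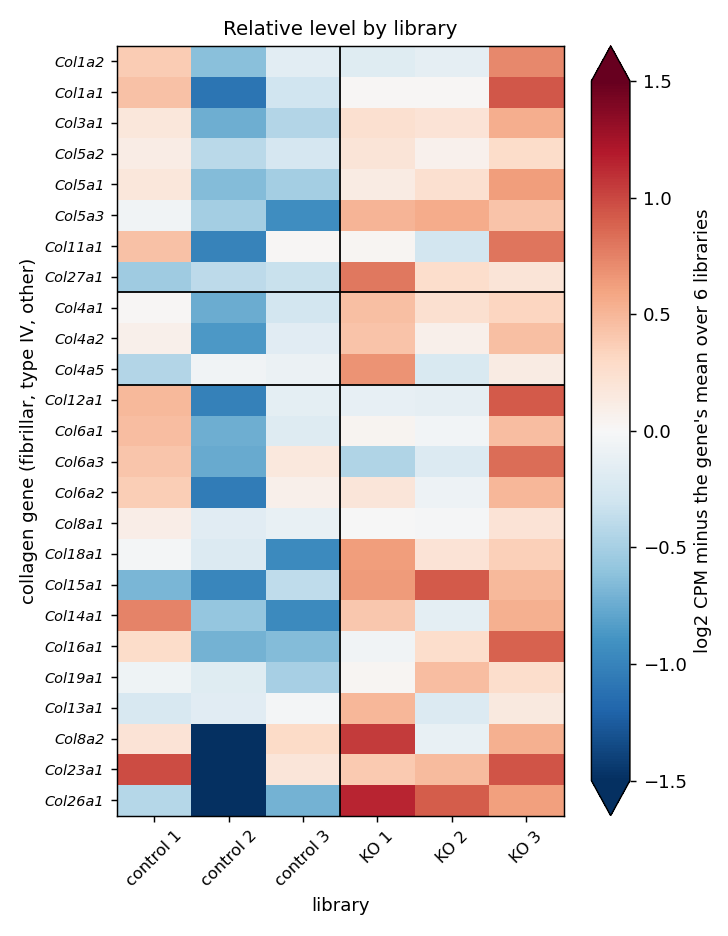
Log2 CPM of each tested collagen gene in each library, minus the gene's mean over the 6 libraries, on a blue to red scale that saturates at 1.5 in either direction. Control library 2 is blue in most rows and KO library 3 is red. Col15a1, Col5a3, Col27a1 and Col26a1 lie below their mean in all 3 control libraries and above it in all 3 KO libraries. Col5a3 in control library 1 is only just below it and near white.

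All collagens together took 0.468%, 0.226% and 0.308% of protein-coding counts in control and 0.417%, 0.387% and 0.585% in KO libraries. Control library 1 lay above KO libraries 1 and 2, so the groups overlapped. The means were 0.334 ± 0.123% and 0.463 ± 0.107% (SD, n = 3), a ratio of 1.39. Without control library 2 the ratio was 1.19 and without control library 1 it was 1.73.

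Fibroblast markers other than collagens had the same lowest and highest library as this total, but ranked the libraries between these differently. Summed over 20 markers, they were at 773.2, 427.9 and 649.9 CPM in control and 752.4, 809.7 and 938.4 CPM in KO libraries, lowest in control library 2 and highest in KO library 3. Of 14 tested, 13 had a positive log2 fold change (median 0.56), against 50.9% of all genes tested, and none was called. Dcn, Lum, Dpt, Fbn1 and Smoc2 stand both in this list and in the lists of matrix genes described further on. Dcn, which encodes the fibril-binding proteoglycan decorin, was at 241.5, 101.2 and 259.2 CPM in control and 220.8, 248.9 and 293.1 CPM in KO libraries. Fbn1, the gene of the microfibril protein fibrillin, was at 104.7 ± 37.6 CPM in control and 136.7 ± 41.5 CPM in KO libraries. Pdgfra, the defining receptor of fibro-adipogenic cells, was at 20.4, 10.0 and 10.5 CPM in control and 16.2, 19.7 and 21.5 CPM in KO libraries. The part of fibroblast transcripts in the collagen values was not tested. In these bulk libraries, fewer cells of a type and less RNA per cell cannot be told apart.

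**Figure D4:**
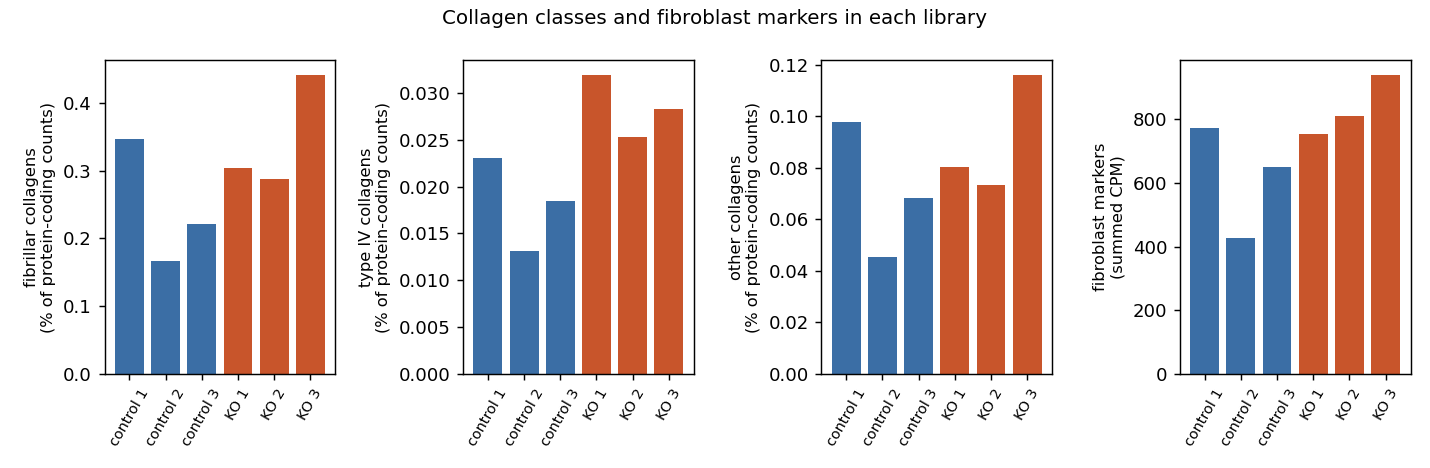
Share of protein-coding counts taken by fibrillar, type IV and other collagens, and summed CPM of 20 fibroblast markers, as 1 bar per library. Each panel is lowest in control library 2, and KO library 3 is highest in all panels but that of type IV collagens, where KO library 1 is highest.

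Markers of tendon cells, which also make fibrillar collagen, summed to between 412.9 and 1133.3 CPM in control and between 811.7 and 1248.4 CPM in KO libraries, and none of 8 tested was called. Thbs4 made up most of this sum, at 926.4, 287.5 and 680.3 CPM in control and 680.1, 612.9 and 980.7 CPM in KO libraries. Fmod, which encodes the fibril-binding fibromodulin, followed at 75.4 ± 31.3 and 93.1 ± 31.2 CPM. Mural and smooth muscle markers summed to between 98.3 and 138.4 CPM in control and between 174.5 and 223.9 CPM in KO libraries, without overlap. Of 7 tested, 5 had a positive log2 fold change, and the lowest value was -1.15. The smooth muscle genes Tagln (log2 fold change 1.51, SE 0.21) and Acta2 (0.72, SE 0.16) were called higher, against 2.22% of all genes tested. Notch3, which encodes a Notch receptor, was the most abundant of the list and a large part of its sum, at 48.5 ± 16.4 and 82.7 ± 14.5 CPM (adjusted p = 0.165). Rgs5, a pericyte gene chosen after its values were seen, stood at 8.24 ± 7.74 CPM in control and 8.33 ± 1.60 CPM in KO libraries. The part of mural and smooth muscle transcripts in the collagen values was not tested. Endothelial markers summed to at most 17.3 CPM, with Esam at 0 in every library, and Schwann cell markers to at most 69.2 CPM, and none of the 2 tested in each list was called. The highest endothelial markers were Eng, at 3.26 ± 1.22 and 5.99 ± 2.08 CPM, and Tek, at 2.98 ± 1.51 and 3.15 ± 0.292 CPM. The highest Schwann cell markers were Ngfr, at 26.8 ± 6.40 and 28.1 ± 5.92 CPM, and Pmp22, at 21.4 ± 4.58 and 30.5 ± 0.835 CPM.

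Blood cell transcripts followed neither group. Neutrophil markers summed to 1583.6 CPM in control library 3, 694.3 CPM in KO library 2 and 204.4 CPM in KO library 3, and to at most 4.52 CPM in the other libraries. The calgranulin genes S100a9 and S100a8 led this list, at 629.2 and 509.8 CPM in control library 3. Macrophage markers summed to between 9.39 and 84.4 CPM, led by the lysozyme gene Lyz2, at 3.76 to 76.1 CPM in control libraries, and the mannose receptor gene Mrc1, at 1.67 to 3.33 CPM in control libraries. No neutrophil marker of 6 tested and no macrophage marker of 3 tested was called. All 13 muscle stem cell markers were tested, and Myod1 was called higher, from 142.2 ± 5.49 to 291.8 ± 63.4 CPM. The most abundant were Des, the gene of the muscle filament protein desmin, at 370.5 ± 22.1 and 510.4 ± 98.5 CPM, and Sdc4, at 292.4 ± 5.76 and 280.0 ± 20.8 CPM. Pax7, the defining transcription factor of muscle stem cells, stood at 26.9 ± 5.70 and 26.9 ± 6.56 CPM and was detected in every library. Together these markers summed to between 1331.7 and 1423.6 CPM in control and between 1509.9 and 1950.9 CPM in KO libraries.

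Chains that assemble into the same trimer were compared as ratios of counts in each library, which cancel library size. A ratio still carries the difference in length between its 2 genes, which is the same in every library. The ratio of Col1a1 to Col1a2 was 1.07, 0.75 and 0.94 in control and 1.19, 1.15 and 1.20 in KO libraries. These groups did not overlap. In an exact two-sided permutation test the p was 0.1, the smallest that 3 against 3 libraries allow, and it was 0.4 after Benjamini-Hochberg adjustment over the 6 pairs, which were chosen after levels had been seen. The ratio of Col4a1 to Col4a2 was 2.28 ± 0.19 in control and 2.34 ± 0.24 in KO libraries (exact permutation p = 0.8). Col5a3 to Col5a1 was 0.49 ± 0.10 and 0.62 ± 0.13 (exact permutation p = 0.2), and Col5a1 to Col5a2 was 0.22 ± 0.03 and 0.27 ± 0.04 (exact permutation p = 0.2). Within type VI, Col6a1 to Col6a2 was 1.44 ± 0.29 and 1.33 ± 0.08 (exact permutation p = 0.6), and Col6a3 to Col6a1 was 0.99 ± 0.16 and 0.88 ± 0.28 (exact permutation p = 0.5).

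**Figure D5:**
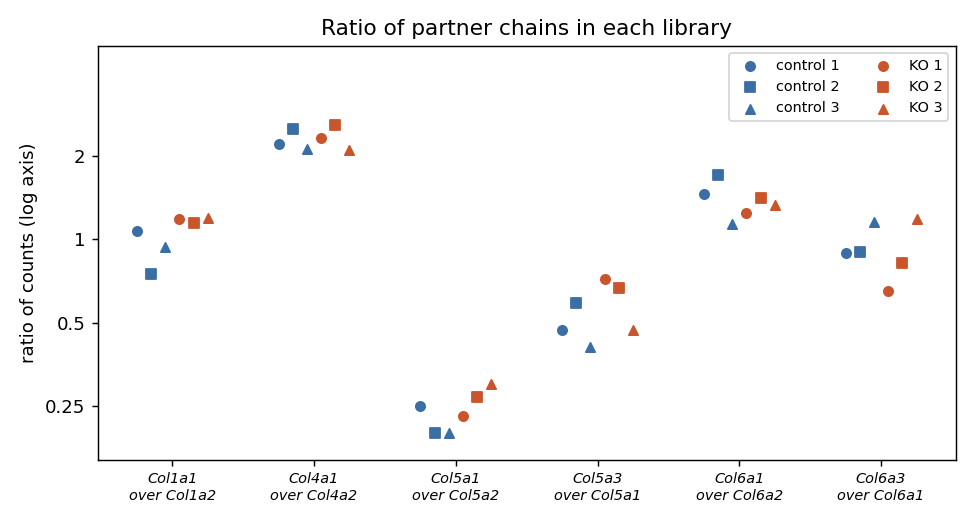
Ratio of counts of partner chains in each library on a log axis, control in blue and KO in orange. For Col1a1 over Col1a2 the KO libraries lie at 1.15 to 1.20, above all control libraries, and in the other 5 pairs the groups overlap.

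Genes that serve collagens were examined in 7 lists. For comparison, 2.22% of all genes tested were called higher and 0.615% lower. The log2 fold change was positive in 50.9% of all genes tested, with a median of 0.007. Of 23 tested genes that fold, modify or export collagen, Serpinh1 was higher and none was lower, and 22 had a positive log2 fold change (median 0.24). Serpinh1 encodes HSP47, the chaperone dedicated to procollagen. It was at 247.7, 193.1 and 233.1 CPM in control and 387.5, 316.6 and 304.5 CPM in KO libraries, and the log2 fold change was 0.58 (SE 0.14, adjusted p = 0.0341). P4hb, a subunit of the prolyl hydroxylase that stabilises the helix, was at 284.3 ± 14.7 and 335.3 ± 4.26 CPM (adjusted p = 0.29).

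No gene of extracellular processing and cross-linking was called among 12 tested. All 12 had a positive log2 fold change (median 0.50), against 50.9% of all genes tested. Of the 12, 5 were higher at an unadjusted p under 0.05, against 10.1% of all genes tested. Lox, whose product cross-links fibrils, was at 312.0, 107.5 and 216.9 CPM in control and 221.0, 251.5 and 421.9 CPM in KO libraries, again with control library 2 lowest and KO library 3 highest. Furin, a convertase of proproteins, was at 62.2 ± 1.17 and 75.2 ± 2.96 CPM (adjusted p = 0.205).

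Of 19 fibril-associated matrix proteins, Sparc was higher and none lower, and all 19 had a positive log2 fold change (median 0.39). Sparc encodes a collagen-binding protein that is needed for the assembly of collagen into matrix. It was at 264.9, 166.2 and 263.6 CPM in control and 358.3, 371.3 and 394.0 CPM in KO libraries (log2 fold change 0.69, SE 0.16, adjusted p = 0.0382). Fn1, the gene of fibronectin, was at 451.0, 113.4 and 260.1 CPM in control and 302.4, 274.9 and 670.3 CPM in KO libraries (adjusted p = 0.716), a spread like that of Col1a1.

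None of 13 basement membrane partners was called (median 0.21), and 10 had a positive log2 fold change. Dag1, which encodes dystroglycan, and the perlecan gene Hspg2 were at 330.9 ± 56.5 and 268.0 ± 86.0 CPM in control and 384.2 ± 60.8 and 307.6 ± 43.6 CPM in KO libraries. None of 15 genes of collagen breakdown and uptake was called (median 0.32), and 14 had a positive log2 fold change. The protease inhibitor genes Timp2 and Timp1 had adjusted p of 0.13 and 0.246. None of 8 collagen receptors was called (median 0.41), and 6 had a positive log2 fold change. The shared integrin chain Itgb1 had a log2 fold change of 0.05, and Ddr2, a receptor kinase for fibrillar collagens, one of 0.26. Calcr, the receptor through which type V collagen acts on muscle stem cells, was at 5.73 ± 2.54 and 4.70 ± 1.36 CPM (adjusted p = 0.75).

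Of 18 tested genes of the TGF-beta pathway, a main inducer of collagen transcription, 10 had a positive log2 fold change (median 0.16) and none was lower. Ccn2, a matrix gene induced by the pathway, was at 75.1, 35.9 and 85.9 CPM in control and 148.4, 134.3 and 112.4 CPM in KO libraries, without overlap, but was not called (adjusted p = 0.226).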

How the data were processed

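Per the labels' protocols, ribosomal RNA was depleted with Ribo-Zero Gold before stranded TruSeq total RNA libraries were sequenced, and a SMARTER kit is named as well. The submitters' processing notes name STAR, Salmon, DESeq2 1.34.0 and GRCm38. How reads were counted, with which strand setting and gene models, is not given in the sources used here. Counts for each gene, whole numbers without normalisation, were deposited in 6 columns, which the series' design text pairs with the samples. Library totals ran from 4052569 to 5690844 counts, of which protein-coding genes received 2001877 to 3050282. Genes near 1 CPM therefore rest on few reads, and without molecular identifiers duplicates cannot be told from separate molecules.

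Symbols were found for 55141 genes. Positions and exon lengths came from GENCODE M21 on GRCm38, and promoters from RefSeq. Counts were fitted over all genes with edgeR 4.0.16 (quasi-likelihood, robust, TMM, filterByExpr, two-sided) in R 4.3.3, with Benjamini-Hochberg adjustment over 11224 genes and a threshold of 0.05. Each SE is the absolute log2 fold change divided by the root of F. In 5 simulated data sets for KO against control over these 11224 genes, recovery was 15.8% at a 1.5-fold change, 62.4% at 2-fold and 90.3% at 4-fold, and 7.7% of calls were false. P-values measure the spread between libraries labelled as biological replicates. Alternatives were other scalings and filters, DESeq2 1.42.0, limma-voom (limma 3.58.1), the replicate number as a block, a fit with neither mitochondrial nor structural RNA genes, and each library left out. Principal transcript length was added after seeing the data. Python 3.11.15 was used for the remaining steps.

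Members, classes, 7 lists of collagen-related genes and 8 lists of cell type markers were chosen with earlier results of these data known. Named were collagens past the threshold or at an unadjusted p under 0.05, the 6 highest per class by exon length, their chain partners or neighbours, and, per list of collagen-related genes, up to 4 called genes or, where none was called, the 2 with the highest mean CPM. Marker lists are given by their called genes and the 2 with the highest mean CPM. Named beyond this rule were the remaining tested collagens, P4hb, Fn1, Ccn2, Calcr, Pdgfra, Pax7, Rgs5 and Esam, which were chosen after their values were seen. A gene of the TGF-beta list that the rule names is not reported here.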

Additional observations from a re-analysis of the deposited data

How the results depend on the processing

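With the main setting, 318 genes and 4 collagens were called. DESeq2 called 184 genes and 2 collagens (Col15a1 and Col5a3), library totals in place of TMM factors 1 collagen (Col15a1), and the fit without a low-count filter 511 genes and 9 collagens. Leaving out each library in turn gave 152 to 345 genes, 1 to 5 collagens and a ratio of collagen shares of 1.19 to 1.73. Without KO library 3 the log2 fold changes were -0.07 for Col11a1, -0.10 for Col1a2, -0.04 for Col12a1 and -0.36 for Col6a3. Without control library 2 they were -0.01 for Col23a1, -0.01 for Col6a1, -0.02 for Col6a2 and -0.13 for Col6a3. Without control library 1, the highest of the 6 such values for each gene, they were 0.66 for Col11a1, 0.56 for Col1a2, 0.82 for Col12a1, 1.23 for Col23a1, 0.59 for Col6a1, 0.58 for Col6a2 and 0.39 for Col6a3. The cause was not tested. The replicate number as a block gave 247 genes and 4 collagens, Col15a1, Col4a1, Col4a2 and Col5a3. Same-numbered libraries deviated from their group means with correlations of 0.142, -0.093 and -0.062. Libraries with different numbers gave correlations from -0.25 to 0.286. Whether same-numbered libraries were paired cannot be told from these values. Over 390 alternative values of 26 genes, 348 kept their direction and side of the threshold, 11 passed it, 23 fell short of it and 8 changed sign. In simulations that changed genes drawn from all those tested, 15.8% of 1.5-fold changes in this comparison were recovered. In control libraries the median coefficient of variation was 33.1% for tested collagens and 13.9% for tested genes at or above the lowest collagen mean. Recovery of collagens as a set was not simulated.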
